A study of Mus musculus with 8 samples.

Results

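Levels of 10 imprinted genes were followed in mouse gastrocnemius, a calf muscle: H19, Igf2, Dlk1, Meg3, Rian, Mirg, Cdkn1c, Peg3, Plagl1 and Grb10. They were chosen by name as imprinted genes tied to muscle growth, and all 10 were found among the 23008 mouse genes of the deposited table. RNA was sequenced from 8 samples of wild-type C57BL/6J mice that had received AAV9, an adeno-associated virus that reaches striated muscle, by tail vein. In every sample the virus carried the gene-activating epigenome editing construct that the labels call GNDM; in 4 it came with guide m31, directed at Lama1, and in 4 with a non-targeting control guide. Muscle was collected 11 weeks later; age at injection is given as 7 weeks in the labels and as 7 to 12 weeks in the series text. Uninjected muscle was not analysed here, so what virus and construct did in both groups alike was not measured. The labels do not state that each library came from its own animal, so p-values describe the spread between these samples.

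Values are normalised reads, that is, reads per gene divided by 1 size factor per library. Depth was 25157486 to 39210248 reads in genes per library. The targeted gene followed its labels: Lama1 read 209, 295, 273 and 86.5 for replicates 1 to 4 of the m31 guide, and 4.18, 0, 2.25 and 0 for those of the control guide. It was the 1 gene of 15960 tested that passed the threshold, an adjusted p under 0.05 from limma (0.00627% of genes). The muscle label held: the summed level of 7 myofibre markers was 4166602 to 4848442 (m31) and 4003918 to 5332129 (control) normalised reads. Replicate 4 with m31 and control replicate 3 stood apart from the other libraries of their groups in markers of immature fibres and of macrophages, and results that rest on them are given with and without them.

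An imprinted gene is expressed mainly from the copy inherited from one parent, because DNA methylation laid down in egg or sperm marks a control region nearby. Many imprinted genes act on growth before birth and are turned down afterwards in most tissues, and several keep a role in muscle stem cells and in fibre regrowth. Of the 10, H19, Meg3, Rian, Mirg, Cdkn1c and, in muscle, Grb10 are known as maternally expressed in the mouse, and Igf2, Dlk1, Peg3 and Plagl1 as paternally expressed. Reads were not split by parental allele, so the data give levels and not imprinting itself.

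H19, Meg3, Rian, Mirg and Igf2 are also host transcripts of microRNAs, small RNAs that pair with target messages through a seed at bases 2 to 8. In RefSeq (GRCm38.p6), 21 microRNA hairpins lay within the members on the same strand: 1 in H19, 1 in Igf2, 2 in Meg3, 3 in Rian and 14 in Mirg. The following mature sequences show what the host RNAs carry, written 5′ to 3′ with the seed in capitals. The microRNAs themselves were not measured, and a host's level does not give theirs.
mmu-miR-675-5p (H19 exon): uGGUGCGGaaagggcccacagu
mmu-miR-675-3p (H19 exon): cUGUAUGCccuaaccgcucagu
mmu-miR-770-5p (Meg3 exon): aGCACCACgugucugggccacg
mmu-miR-370-3p (Rian intron): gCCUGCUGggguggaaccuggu
mmu-miR-410-3p (Mirg exon): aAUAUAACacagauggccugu
mmu-miR-453 (Mirg intron): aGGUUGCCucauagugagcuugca
mmu-miR-496a-5p (Mirg intron): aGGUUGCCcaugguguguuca
The last pair, both within Mirg, share 1 seed. No other seed was shared by differently named microRNAs among the 39 mature entries of these hosts.

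None of the 10 genes differed between the guides beyond the spread of the libraries. All 10 had a mean of at least 10 normalised reads and were tested. None passed the threshold (background 0.00627% of 15960 genes), and none had an unadjusted p under 0.05 (background 6.79%). Estimates on the log2(value + 1) scale, m31 minus control, ran from -0.44 for Grb10 to 0.34 for Plagl1, with 6 positive and 4 negative (51.3% of all genes were positive). Their median was 0.03, beside 0.01 over all genes tested. The m31 and control ranges overlapped for each member, where 3.85% of all genes had ranges that did not, 1.84% with m31 higher and 2.02% with m31 lower. Counted by parent of origin, the 6 maternally expressed genes had a median of 0.03 and the 4 paternally expressed genes one of 0.11. The tests with edgeR and DESeq2 on the recovered reads also called 0 of the 10 (background 0.00627% and 0.237%), and placed none of them at an unadjusted p under 0.05 (7.11% and 7.09% of all genes).

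**Figure D1:**
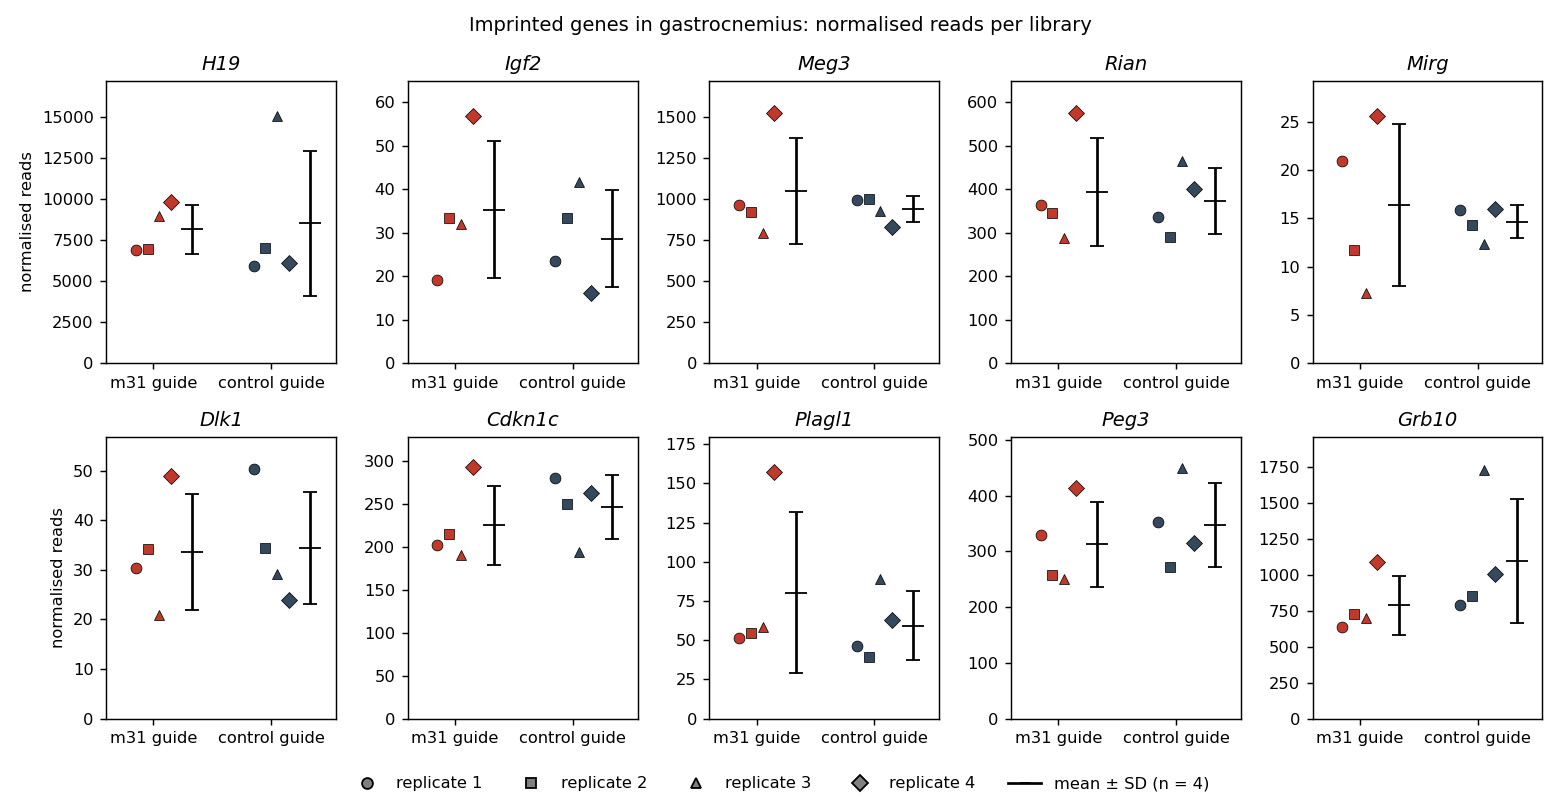
Normalised reads (linear axes from 0) of the 10 imprinted genes in each library, by guide, with the mean ± SD of 4 libraries. Replicate 4 with m31 (diamond) is the highest of the 8 libraries for Igf2, Meg3, Rian, Mirg, Cdkn1c and Plagl1, and control replicate 3 (triangle) for H19, Peg3 and Grb10.

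What stood out among these genes was a difference between libraries rather than between guides. Of the 10 genes, 6 had their highest value of all 8 libraries in m31 replicate 4, where 16.5% of all genes had theirs. Of the other 4, 3 had it in control replicate 3 (16.5% of all genes) and Dlk1 in control replicate 1 (11%). Control replicate 4, the highest library for 16.7% of all genes, was highest for no member, and neither were m31 replicates 1, 2 and 3 or control replicate 2 (9.47, 8.21, 9.51 and 12.1% of all genes). Within the m31 group, replicate 4 was the highest for all 10 members, as for 29.8% of all genes, and within the control group replicate 3 was for 6 of them, as for 31.8% of all genes. By Dixon's test the gap was past the 95% critical value for Plagl1 in the m31 libraries (6.44% of all genes) and for H19 in the control libraries (6.23%). The libraries were singled out after their values were seen. All 10 varied more over the 8 libraries than the median gene, with a median SD of 0.44 on the log2 scale beside 0.22 for all genes tested.

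At the H19 and Igf2 locus on chromosome 7, H19 is a long non-coding RNA abundant in embryonic muscle and Igf2 encodes insulin-like growth factor 2, a growth factor of fetal tissues and regenerating fibres. Normalised reads of H19 were 6875, 6946, 8967 and 9832 for m31 replicates 1 to 4, against 5886, 6984, 15074 and 6104 for control replicates 1 to 4. Control replicate 3 was far above the other 7 libraries, and these overlapped across guides. The difference was 0.04 ± 0.26 (SE; 95% interval -0.54 to 0.62) with limma's adjusted p = 0.983. It was -0.06 ± 0.28 without m31 replicate 4. Without control replicate 3 it was 0.35 ± 0.13, with limma's unadjusted p = 0.0254 and adjusted p = 0.370, in a fit that placed 11.9% of all genes at an unadjusted p under 0.05. Without both it was 0.26 ± 0.12 (limma's unadjusted p = 0.0519, adjusted p = 0.459).

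Igf2 was low in this adult muscle, at 12 to 71 reads per library. It stood at 19, 33.2, 31.9 and 56.9 normalised reads (m31) and at 23.4, 33.4, 41.6 and 16.0 (control). Its 2 highest libraries were m31 replicate 4 and control replicate 3, 1 from each group. The difference was 0.27 ± 0.36 (95% interval -0.53 to 1.08; limma's adjusted p = 0.906). It was 0.02 without m31 replicate 4, 0.48 without control replicate 3 and 0.22 without both. Igf2os, an antisense RNA listed at a mean of 2.43 normalised reads, overlaps Igf2; with the strand setting of the counting not given, their reads cannot be told apart.

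The ratio of Igf2 to H19, reciprocally imprinted neighbours that share enhancers, was also compared, because a ratio cancels a level common to both. Igf2 equalled 0.26 to 0.58% of H19 normalised reads over the 8 libraries. The log2 ratio was -7.90 ± 0.45 with m31 and -8.13 ± 0.41 with the control guide (SD, n = 4 each; exact two-sided permutation p = 0.429). H19 is annotated at chromosome 7, 142575529 to 142578143, and Igf2 at 142650766 to 142666816, both on the minus strand (GENCODE M21, GRCm38). Nctc1, a muscle non-coding RNA 16.9 kb from H19, averaged 2907 ± 429 (m31) and 3388 ± 838 (control) normalised reads. Unlike H19 it was lowest of the 8 libraries in control replicate 3, at 2253.

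The Dlk1-Meg3 locus on chromosome 12 yields the paternally expressed Dlk1 and, from the maternal copy, the non-coding RNAs Meg3, Rian and Mirg, which lie in a row on the plus strand. On GRCm38 (GENCODE M21) Dlk1 spans 109452823 to 109463336, Meg3 109541001 to 109571726, Rian 109603940 to 109661716 and Mirg 109729764 to 109749460. Meg3 read 965, 925, 792 and 1525 in the 4 m31 libraries. The control libraries lay close together, at 995, 1004, 927 and 833. Replicate 4 with m31 was 1.71 times the mean of the other m31 libraries, and those 3 fell within or just under the control range. The difference was 0.12 ± 0.17 (95% interval -0.26 to 0.50; limma's adjusted p = 0.913).

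Rian, host of small nucleolar RNAs and microRNAs, stood at 365, 346, 289 and 575 normalised reads (m31) and at 336, 291, 464 and 401 (control). The highest library was again m31 replicate 4, and control replicate 3 came second. The difference was 0.05 ± 0.21 (limma's adjusted p = 0.976). Mirg, the microRNA host at the far end, was near the detection limit, at 20.9, 11.7, 7.28 and 25.6 normalised reads (m31) and 15.9, 14.3, 12.4 and 16.0 (control). The lowest and highest of these rested on 8 and 32 reads, with exact 95% counting intervals of 3.14 to 14.3 and 17.5 to 36.2 normalised reads that cover counting error only. Its difference was 0.02 ± 0.37 (95% interval -0.80 to 0.83). With this spread between libraries, to which counting error adds, changes within that interval could go undetected.

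Dlk1, a transmembrane relative of the Notch ligands whose excess enlarges muscle in callipyge sheep, stood at 30.4, 34.1, 20.9 and 48.9 normalised reads with m31. With the control guide it stood at 50.2, 34.3, 29.2 and 24.0. Control replicate 1 was highest, just above m31 replicate 4, so Dlk1 was the 1 member whose highest library was neither of those that stood apart. The difference was -0.04 ± 0.30 (limma's adjusted p = 0.983).

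Within the maternal row, Rian reads as a share of Meg3 reads were nearly the same in all 4 m31 libraries, at 37.8, 37.4, 36.4 and 37.7%. In the control libraries they ranged more widely, at 33.7, 29.0, 50.1 and 48.2%. In m31 replicate 4, both RNAs were high, in the proportion of the other m31 libraries. Control replicate 3 had high Rian beside Meg3 within the range of the other control libraries. The share in control replicate 4, at 48.2%, was close to that in control replicate 3. The means differed by less than the spread: the log2 ratio was -1.42 ± 0.02 with m31 and -1.35 ± 0.39 with the control guide (SD, n = 4 each; exact two-sided permutation p = 0.743). The difference in spread was picked out after the values were seen and was not tested. For Mirg the share of Meg3 was 0.92 to 2.17%, with log2 ratios of -6.02 ± 0.48 and -5.91 ± 0.22 (exact two-sided permutation p = 0.743). The difference between the group means of the log2 ratio, m31 minus control, was -0.07 for Rian and changed sign without control replicate 3 (0.05) or control replicate 4 (0.03). For Mirg it was -0.11, and 0.08 without m31 replicate 3.

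**Figure D2:**
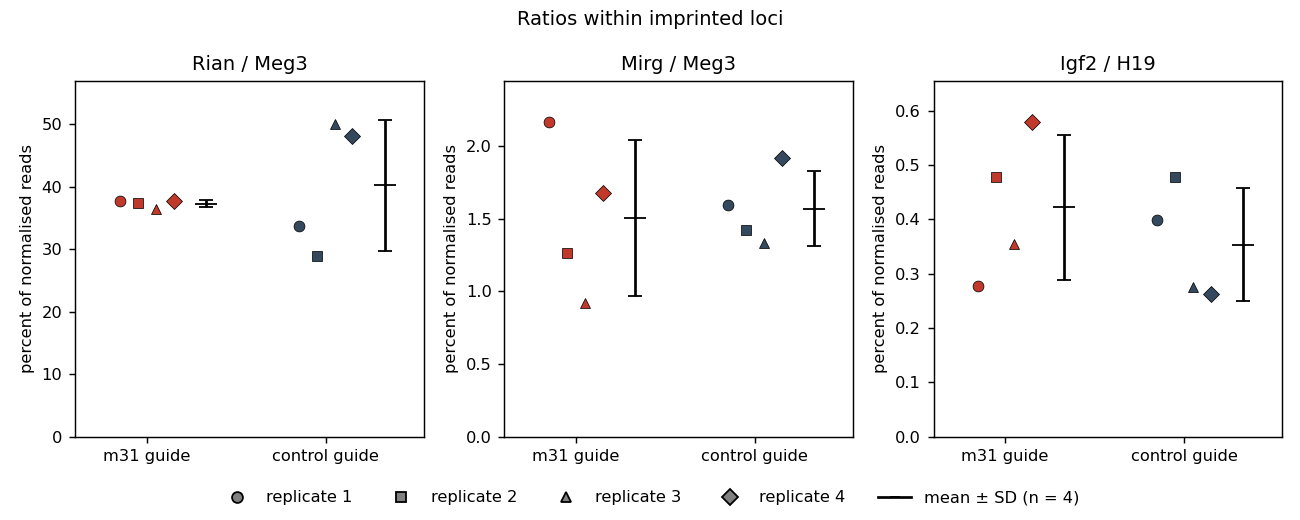
Reads of 1 gene as a percent of another of the same locus in each library (linear axes from 0), with the mean ± SD of 4 libraries per guide. Rian as a share of Meg3 spans 36.4 to 37.8% (m31) and 29.0 to 50.1% (control), and the 2 other ratios overlap throughout.

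Growth restraint among the members lies with Cdkn1c (chromosome 7, 143458339 to 143461050) and Grb10 (chromosome 11, 11930508 to 12038683), both annotated on the minus strand. Cdkn1c encodes p57, a cyclin-dependent kinase inhibitor that holds differentiating myoblasts out of the cell cycle. It stood at 201, 215, 190 and 292 normalised reads (m31) and at 280, 250, 193 and 263 (control). Replicate 4 with m31 and control replicate 3 each ran against the rest of their group, high in the first and low in the second. The difference was -0.14 ± 0.16 (limma's adjusted p = 0.893). It was -0.27 ± 0.15 without m31 replicate 4 and -0.25 ± 0.15 without control replicate 3 (limma's unadjusted p = 0.0908 and 0.130). Without both it was -0.38 ± 0.11 (limma's unadjusted p = 0.00751, adjusted p = 0.282), in a fit that placed 10.9% of all genes at an unadjusted p under 0.05. Both were left out after it was seen that they ran against their groups for this gene.

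Grb10 encodes an adaptor that dampens signalling from the insulin and IGF1 receptors, and its loss in mice enlarges muscle. It had the lowest estimate and the smallest p of the 10. Its normalised reads were 636, 724, 702 and 1087 for m31 replicates 1 to 4, against 793, 852, 1726 and 1009 for control replicates 1 to 4. Replicates 1 to 3 with m31 lay below all 4 control libraries, m31 replicate 4 lay among them, and control replicate 3 was far above. The difference was -0.44 ± 0.24 (95% interval -0.96 to 0.09) with limma's unadjusted p = 0.0948 and adjusted p = 0.781. Without m31 replicate 4 it was -0.60 ± 0.23 and without control replicate 3 it was -0.19 ± 0.17. With neither it was -0.36 ± 0.11 (limma's unadjusted p = 0.00907, adjusted p = 0.298), in a fit that placed 10.9% of all genes at an unadjusted p under 0.05. Both libraries were left out after their values were seen. The groups overlap only through m31 replicate 4, so leaving it out had to part them.

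Plagl1 (chromosome 10, 13060504 to 13131694, plus strand) and Peg3 (chromosome 7, 6703892 to 6730431, minus strand) are zinc finger genes. Plagl1 encodes a transcription factor that binds other imprinted genes, Igf2 and H19 among them, and Peg3, also called Pw1, marks stem cells of muscle and its interstitium. Plagl1 stood at 51.3, 54.8, 58.3 and 157 normalised reads (m31) and at 46.0, 39.1, 88.8 and 62.6 (control). Replicate 4 with m31 was 2.87 times the mean of the other m31 libraries, and control replicate 3 was 1.80 times that of the other control libraries. The difference of 0.34 ± 0.37 (limma's adjusted p = 0.888) became -0.04 without m31 replicate 4, 0.55 without control replicate 3 and 0.18 without both. Peg3 stood at 330, 258, 250 and 414 with m31 and at 352, 272, 450 and 314 with the control guide, the same pair of libraries being highest. Its difference was -0.15 ± 0.19 (limma's adjusted p = 0.895). Zim1, the maternally expressed neighbour 7.44 kb from Peg3, was likewise highest in control replicate 3 (170) and m31 replicate 4 (131), against 61.1 to 92.1 elsewhere.

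**Figure D3:**
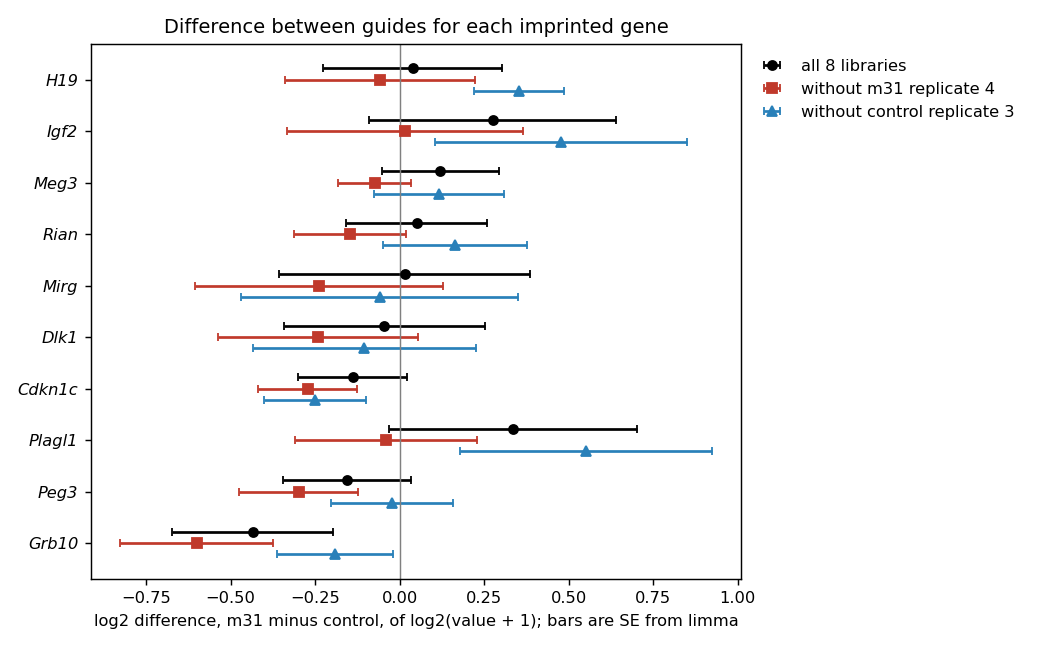
Difference between guides on the log2(value + 1) scale for each gene, with its SE from limma, for all 8 libraries and with m31 replicate 4 or control replicate 3 left out. Without m31 replicate 4, 9 of the 10 estimates are negative, and without control replicate 3 the estimate for H19 is 0.35. Replicate 4 was the highest m31 library for all 10 genes, so leaving it out lowers every estimate.

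Since m31 replicate 4 was the highest m31 library for all 10 members, leaving it out had to lower every estimate. The shift is therefore not a separate result about the guides. The estimates of H19, Meg3, Rian, Mirg and Plagl1 turned from positive to negative, and the other 5 kept their sign. In that fit 9 of the 10 differences were negative with a median of -0.19, beside 0.003 over all genes in that fit. Igf2, at 0.02, was the exception. Again none passed the threshold, with a smallest adjusted p of 0.781 in limma, and only Grb10 had an unadjusted p under 0.05 (1 of 10, beside 5.73% of all genes). Without control replicate 3, 5 were positive and 5 negative, and the smallest adjusted p was 0.370.

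Markers of immature or regenerating fibres were high in the same libraries. Mymk, the fusion protein gene myomaker, had 1.33 to 5.70 normalised reads in 6 libraries, but 84.9 in m31 replicate 4 and 40.5 in control replicate 3. Chrng, the fetal acetylcholine receptor subunit gene, stood at 40.9 and 36.0 against 1.33 to 9.10, and embryonic myosin heavy chain Myh3 at 344 and 681 against 70.1 to 193. Mymx, the other fusion protein gene, was not tested, and it set apart only m31 replicate 4, at 28.8. Its value for control replicate 3 was 5.62, and the remaining libraries lay at 0 to 4.77. The gap between 5.62 and 4.77 is smaller than the 1.12 normalised reads that 1 read is worth in control replicate 3. No Mymx read was found for m31 replicate 1 or control replicate 4. Of the 9 markers of this kind that were tested, 5 were highest in m31 replicate 4 and 3 in control replicate 3.

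Averaged over these 9 genes and centred on the 8 libraries, the log2 level reached 1.04 (m31 replicate 4) and 0.96 (control replicate 3), the others lying between -0.69 and -0.16. The summed level of all 10 genes of that list, most of it Actc1 and Myh8, was 8041 to 11232 (m31) and 7845 to 15641 (control) normalised reads, and so did not set these libraries apart. The same average over the 10 imprinted genes was 0.61 and 0.29, against -0.31 to -0.04. None of the markers passed the threshold between guides, and their part in the levels of the imprinted genes was not tested.

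Markers of other cells also set these libraries apart in part, some high and some low, and not alike in both. All 6 macrophage markers were highest in m31 replicate 4, with a mean centred log2 level of 1.18, and control replicate 3 came second at 0.69. Their summed level was 1608 to 3663 (m31) and 980 to 2711 (control) normalised reads. All 6 tendon markers were highest in m31 replicate 4 (0.98), with control replicate 3 at -0.03, and summed to 11872 to 28612 and 7250 to 14546 respectively. For fibro-adipogenic progenitors, the stromal cells that express several imprinted genes, the mean was 0.54 and 0.28 and the sums 47450 to 75077 and 46662 to 62914. The satellite cell and myoblast list was at 0.35 and 0.16, with sums of 1768 to 2185 and 1436 to 1880. The mean of the 7 myofibre markers was lowest of the 8 in the same libraries, at -0.12 and -0.14 against -0.07 to 0.18 elsewhere. Endothelial markers were lowest in m31 replicate 4 (-0.20), with control replicate 3 at 0.13. Pericyte and smooth muscle markers were at 0.17 and -0.11, Schwann cell markers at -0.17 and 0.33 and adipocyte markers at -0.02 and 0.13, within the range of the other libraries. Some lists also leaned by guide, with 0 genes past the threshold (positive is higher with m31). Estimates were positive for 6 of 6 macrophage (median 0.75), 6 of 6 tendon (0.64) and 8 of 9 fibro-adipogenic markers (0.31). All 7 myofibre (-0.08) and all 6 Schwann cell markers (-0.36) were negative. Positive too were 7 of 8 satellite cell, 5 of 6 endothelial and 4 of 5 pericyte markers. For adipocytes 5 of 5 were positive and for immature fibres 4 of 9, beside 51.3% of all genes. In bulk RNA, more cells of a type and more RNA per cell cannot be told apart, and the part of these cells in the result was not tested. Of the 2 libraries, control replicate 3 had the highest construct level of the 8 (GNDM at 37989 normalised reads) and m31 replicate 4 the lowest (6157).

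**Figure D4:**
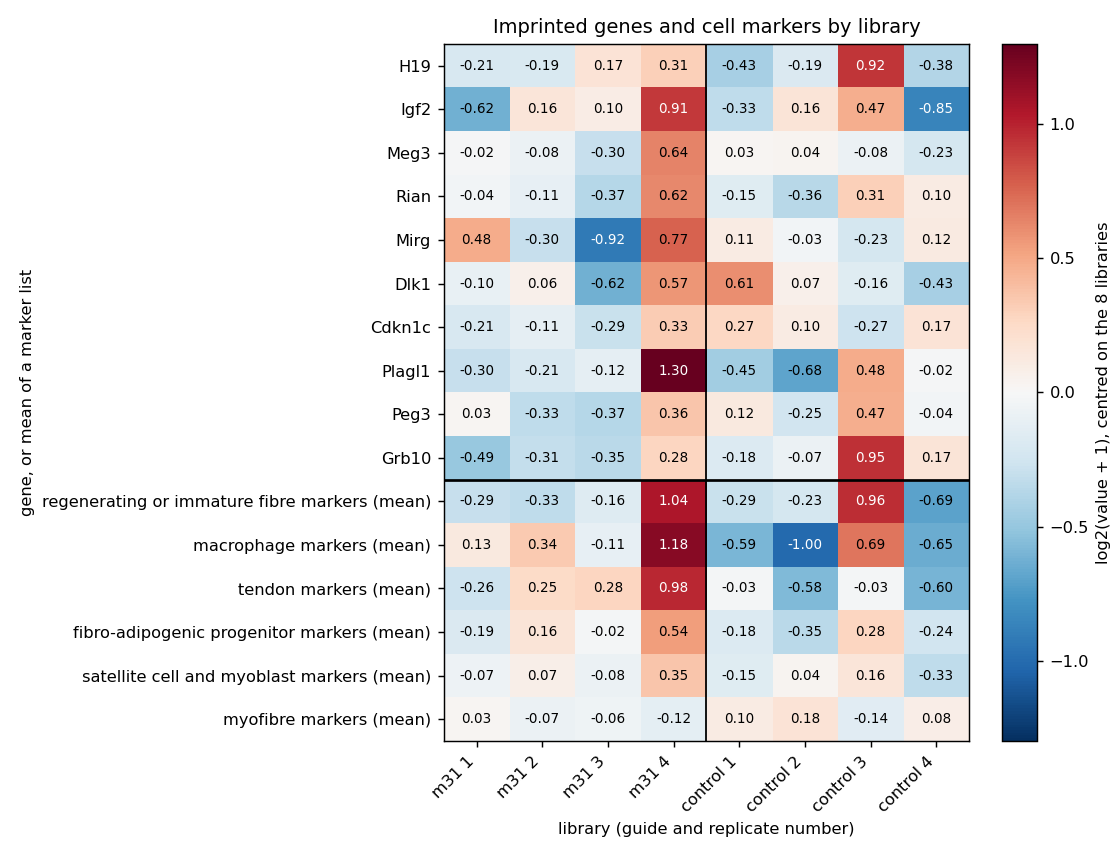
Log2(value + 1) of the 10 imprinted genes, and the mean of 6 marker lists, in the 8 libraries, each centred on the mean of the 8; red is above that mean and blue below. The columns of m31 replicate 4 and control replicate 3 hold most of the high values, with Plagl1 at 1.30 in the first and Grb10 at 0.95 in the second.

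The members did not form a single block. Over the 8 libraries, 42 of the 45 pairs of members had a positive Pearson correlation of log2 values, with a median of 0.54, where 49.8% of all pairs of the 15960 genes tested did. Without m31 replicate 4 and control replicate 3 the median was 0.05, and 24 pairs were positive (50% of all gene pairs). With exact two-sided permutation tests, none of the 45 passed adjustment over all of them, the smallest adjusted p being 0.118 for Pearson's r and 0.346 for Spearman's rho. The pair with the highest Pearson's r over all 8 libraries was Rian and Plagl1, on different chromosomes, with r = 0.91 (exact p = 0.00263) and rho = 0.74 (exact p = 0.0458). It rests on the same 2 libraries, since r fell to 0.52 without them. Dlk1 and Meg3, of the same locus and opposite parental origin, had r = 0.79 (exact p = 0.00722, adjusted p = 0.146) and rho = 0.86 (exact p = 0.0107). Their rho was the highest of the 45 pairs, and their r without m31 replicate 4 and control replicate 3 was 0.86, again the highest. It was 0.94 without control replicate 1 and m31 replicate 3, the libraries farthest from the median of Dlk1. H19 and Igf2 had rho = 0.83 (exact p = 0.0154, adjusted p = 0.346) and r = 0.69 (exact p = 0.0547). Their r was 0.58 without m31 replicate 4 and control replicate 3. For Meg3 and Mirg r was 0.76 (exact p = 0.0381, adjusted p = 0.249), and 0.64 without those libraries. It was 0.11 without m31 replicates 4 and 3. Dlk1 and Rian had r = 0.36 (exact p = 0.382). Meg3 and Rian, neighbours in the same row, had r = 0.67 (exact p = 0.0752, adjusted p = 0.249) and rho = 0.29 (exact p = 0.501), and r was -0.61 without m31 replicates 4 and 3, the libraries farthest from the median of Meg3.

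Promoter windows are shown for Rian and Plagl1, the pair with the highest Pearson's r, and for Grb10, the gene with the lowest estimate. They differ in CpG content. Each runs from 250 bases before to 50 after a RefSeq start on GRCm38.p6. Those of Plagl1 and Grb10 lie inside the gene spans given above. Whether these starts are used in this muscle was not tested. Capitals mark TGCCGC or its reverse complement GCGGCA, searched on both strands. TGCCGC is the motif that the imprinting factor ZFP57 binds when methylated; 11.6% of all 32851 windows hold it. A match is a description and not a binding site.
Plagl1 (chr10:13090582-13090881, plus strand): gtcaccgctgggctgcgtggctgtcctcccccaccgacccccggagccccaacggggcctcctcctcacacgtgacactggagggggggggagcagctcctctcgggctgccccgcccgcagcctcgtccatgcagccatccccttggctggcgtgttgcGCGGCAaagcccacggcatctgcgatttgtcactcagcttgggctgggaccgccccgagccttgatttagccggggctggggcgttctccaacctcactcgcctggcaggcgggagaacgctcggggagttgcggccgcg
Rian (chr12:109603695-109603994, plus strand): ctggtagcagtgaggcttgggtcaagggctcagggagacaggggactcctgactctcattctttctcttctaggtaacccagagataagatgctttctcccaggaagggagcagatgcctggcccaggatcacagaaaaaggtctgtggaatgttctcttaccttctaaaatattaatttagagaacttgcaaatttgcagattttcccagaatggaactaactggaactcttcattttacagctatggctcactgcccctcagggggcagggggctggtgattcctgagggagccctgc
Grb10 (chr11:12037371-12037670, minus strand): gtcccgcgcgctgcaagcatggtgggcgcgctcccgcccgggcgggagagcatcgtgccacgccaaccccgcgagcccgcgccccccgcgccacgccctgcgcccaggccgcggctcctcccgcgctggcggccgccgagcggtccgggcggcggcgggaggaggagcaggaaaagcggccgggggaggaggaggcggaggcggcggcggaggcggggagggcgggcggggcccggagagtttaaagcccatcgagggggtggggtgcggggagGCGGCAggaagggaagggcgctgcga
This Grb10 window holds 45 CpG dinucleotides and that of Plagl1 26, against a median of 7 over all windows, while that of Rian holds 0. A second Grb10 start, with its window at 12027922 to 12028221, has 9 CpG and no match to the motif. In all, 8 of the 10 members had windows, 13 together, and 4 of these, 1 each for Igf2, Plagl1, Grb10 and Meg3, held the motif.

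Levels could be ordered per length of exon, taking the union of all annotated exons of a gene. H19 led by far, at 3388 ± 1238 normalised reads per kb (SD over 8 libraries). Cdkn1c (116 ± 19.9) and Grb10 (104 ± 38.8) followed, with overlapping ranges, and then Meg3 at 55.0 ± 12.5. Peg3 (24.8 ± 5.46) and Rian (21.0 ± 5.28) overlapped as well, though Peg3 was above Rian in 7 of 8 libraries. Plagl1 (8.92 ± 4.89), Dlk1 (6.01 ± 1.88) and Igf2 (5.58 ± 2.30) could not be ranked, with Dlk1 above Igf2 in 5 of 8 libraries. Mirg was lowest, at 2.13 ± 0.78. The union of exons of Meg3 (18089 bases) and Rian (18234 bases) joins many annotated forms, which lowers their values per kb relative to a short gene such as H19 (2460 bases).

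**Figure D5:**
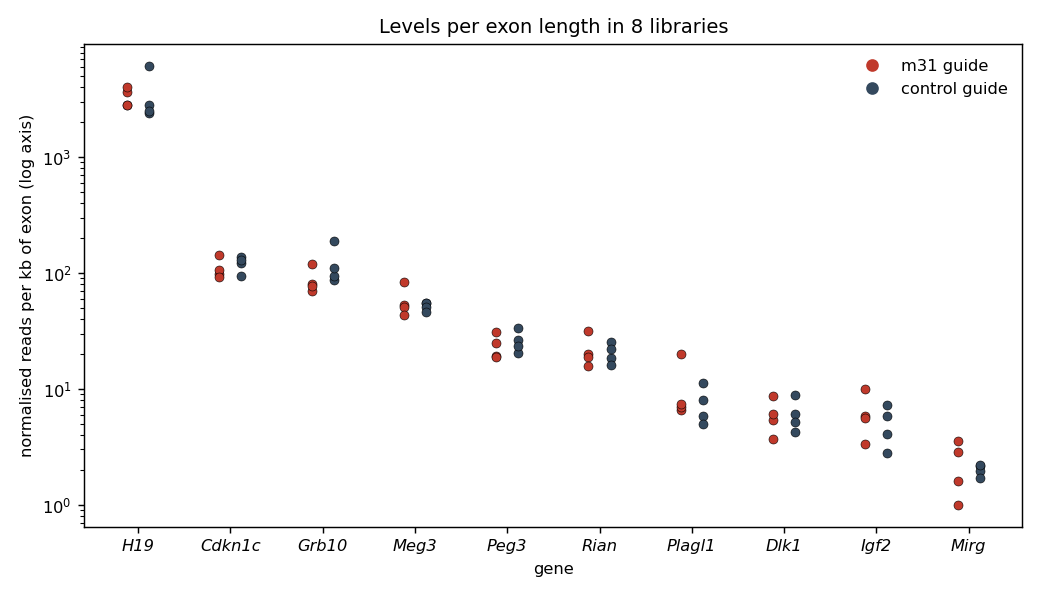
Normalised reads per kb of annotated exon (log axis) for the 10 genes, 1 point per library, by guide. H19 lies above all the others in every library, and Plagl1, Dlk1 and Igf2 overlap. The ranges of both guides overlap for each gene, for Grb10 only through m31 replicate 4.

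The genes whose log2 levels most resembled each member over the 8 libraries were taken as the 3 with the highest Pearson r among 12320 genes with a mean of at least 50 normalised reads. This was done for the 7 members at that level. They are the extremes of many comparisons and are given without a p-value. For Rian they were Lsp1 (0.97), which encodes a leukocyte actin-binding protein, B2m (0.97), the light chain of MHC class I, and Abca1 (0.96), a cholesterol exporter. For Plagl1 they were Fndc3a (0.98), Samd9l (0.98) and Fcgr2b (0.97), an immunoglobulin receptor of myeloid and B cells. For Meg3 they were Dzip1l (0.98), Apobec3 (0.97) and Galk1 (0.96), and for Peg3 S100a10 (0.97), Vav3 (0.96) and Fnip2 (0.96). Dkk2 (0.96), Pnisr and Epha4 came closest to Cdkn1c, Tubb2a (0.98), Zhx3 and Pot1b to Grb10, and Ammecr1l (0.98), Rab13 and Dlg4 to H19. No member was among the 3 genes closest to another member. Without m31 replicate 4 and control replicate 3, these r values ranged from 0.76 (Zhx3) to 0.97 (Pot1b), and rose only for Pnisr and Pot1b. They were then 0.84 (Abca1) to 0.88 (Lsp1) for Rian and 0.78 (Fndc3a) to 0.89 (Samd9l) for Plagl1, so the closeness rests in part on those libraries.

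No other imprinted gene passed the threshold between guides. Of 44 listed, 34 were tested and 0 passed in either direction (background 0.00627%), with 18 positive and 16 negative estimates and a median of 0.003. Mest, a paternally expressed gene of mesoderm, followed the pattern of Plagl1, at 91.9 to 137 normalised reads in 6 libraries, 366 for m31 replicate 4 and 208 for control replicate 3; it was picked out after its values were seen. Over the list, however, 5 of 34 genes were highest in m31 replicate 4 and 8 in control replicate 3. The smallest unadjusted p in that list was that of Zdbf2, at 15.3 ± 9.59 (m31) and 26.1 ± 11.3 (control) normalised reads (log2 difference -0.83 ± 0.43, limma's adjusted p = 0.773). Next came Slc38a4, an amino acid transporter gene, at 0.35 ± 0.22, Ppp1r9a at -0.40 ± 0.27 and Gnas at 0.25 ± 0.17. Of the 19 tested genes in a list of genes beside the loci, 0 passed, with a median of -0.07 and Kcnq1 (-0.31 ± 0.24) at their head. Some tested neighbours outside that list had a smaller p in limma, and none of them passed. They were Stx11 beside Plagl1 (0.64 ± 0.40), Zfp28 beside Peg3 (0.25 ± 0.17) and Gm12002 beside Grb10 (0.22 ± 0.17).

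A list built around the pathway of Igf2 and Grb10, but wider than that pathway, held the lowest p-values near the members. Of 27 tested genes of IGF binding, receptors, cell cycle and Notch signalling, 0 passed the threshold and 6 had an unadjusted p under 0.05 in limma (background 6.79%); their median was -0.03. Irs1, the docking protein of the insulin and IGF1 receptors, stood at 921, 1050, 766 and 698 normalised reads (m31) and at 1448, 1022, 2252 and 2353 (control). Its groups overlapped through m31 replicate 2 and control replicate 2, and the difference was -0.98 ± 0.24 (limma's unadjusted p = 0.00206, adjusted p = 0.627). Akt1, a kinase downstream, had 2141 ± 111 and 1729 ± 125 (0.31 ± 0.08), Igfbp6, which binds IGF2 preferentially, 1840 ± 143 and 1434 ± 205 (0.37 ± 0.11), and Notch3 1729 ± 161 and 1373 ± 158 (0.34 ± 0.10). Their adjusted p-values in limma were 0.627, 0.647 and 0.647. Igf2r, the maternally expressed receptor that clears IGF2, was picked out for that role and had a difference of -0.12 ± 0.16.

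Among 14 factors of imprint maintenance and DNA methylation, 0 passed, and the median was 0.01. Ctcf, the insulator protein that parts Igf2 from its enhancers on the maternal copy, lay lower under m31 with no overlap of the groups, at 1159 ± 22.9 against 1284 ± 50.5 normalised reads. It did not pass (-0.15 ± 0.07, limma's unadjusted p = 0.0619, adjusted p = 0.747), and 2.02% of all genes were lower without overlap. Tet2, a methylcytosine oxidase gene, had a difference of -0.39 ± 0.21, Smchd1 0.14 ± 0.12 and Zfp445, an imprint-protecting zinc finger gene, -0.09 ± 0.08.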

How the data were processed

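Per gene, the authors' table gives a signal, reads scaled by size factors; STAR and DESeq2 are named, without versions, in the submitters' processing notes. GRCh38.p12, a human build, is listed there, but identifiers are mouse Ensembl; for counting program, strand setting and annotation, nothing is stated (not given in the sources used here). Of 11 value columns, 8 match the labelled libraries and 3 were not used. Construct entries (5) were left out of gene tests. Within each library 100% of values were whole multiples of 1 read (tolerance 0.01), so reads were recovered. Depth was 25157486 to 39210248 reads. For Mirg, Igf2 and Dlk1 counting error limits precision in addition to the spread between libraries.

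Groups and replicate numbers come from the titles. The design foresaw a count test for counts and, for normalised values, limma, which applied: limma 3.58.1 in R 4.3.3 (intensity trend, intercept and group) on log2(value + 1), for genes with a mean of at least 10, Benjamini-Hochberg adjusted over all 15960, threshold 0.05. A fold change on this scale understates that of low genes. Ratios were compared by exact permutation over 70 arrangements. Members and lists were chosen with earlier results of these data known. Genes named are the members, up to 4 of each list with the smallest p, the 3 most alike per member and tested neighbours; only some are printed, and any other is said to be picked out or is a marker. Alternatives were edgeR 4.0.16 and DESeq2 1.42.0 on recovered reads, libraries left out, a replicate block, other minimums, pseudocounts and scalings.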

Additional observations from a re-analysis of the deposited data

Results flagged for a closer look

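In the control group, H19 in replicate 3 stood at 15074 normalised reads against 5886 to 6984 in the other 3 libraries, a gap of 0.881 of the group's whole range, above Dixon's 95% critical value for 4 samples. In the m31 group, Plagl1 in replicate 4 stood at 157 against 51.3 to 58.3, a gap of 0.934 of the range. These were the 2 of 20 gene and group sets past that value. Chance flags about 1 in 20 groups, and over all genes tested 6.44% of m31 groups and 6.23% of control groups passed it.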

How the results depend on the processing

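No member passed the threshold under any alternative run. Cdkn1c, Grb10, Igf2 and Peg3 kept their sign throughout, from -0.38 to -0.07, -0.60 to -0.19, 0.02 to 0.53 and -0.30 to -0.02. With single libraries left out, H19 ranged from -0.10 to 0.35, Meg3 from -0.073 to 0.24, Rian from -0.15 to 0.18, Mirg from -0.24 to 0.32, Dlk1 from -0.24 to 0.15 and Plagl1 from -0.041 to 0.55. Without m31 replicate 4 and control replicate 3 together, Meg3 was -0.078, Rian -0.035 and Mirg -0.31. Mirg was also negative under quantile normalisation (-0.045) and recentring (-0.020), and H19 with edgeR (-0.065) and DESeq2 (-0.062). The causes were not tested. With single libraries left out, the difference in log2 ratio, m31 minus control, was -0.21 to 0.047 for Rian to Meg3, -0.29 to 0.082 for Mirg to Meg3 and 0.07 to 0.41 for Igf2 to H19. Over all genes, calls were 1 higher and 0 lower, 0 to 1 lower with 1 library left out, 3 higher without the 2 libraries together, and 23 higher and 14 lower with DESeq2. Same-numbered libraries did not deviate together (correlations -0.18 to 0.05 for the 4 pairs). With so few libraries this shows no pairing by number but cannot exclude it. A replicate block gave 1 call over all genes and 0 among the members.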
